A study of Mus musculus with 16 samples.

Results

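Nos2 encodes inducible nitric oxide synthase, and its mRNA was followed in the input and IP libraries of peritoneal macrophages (PMs). It was chosen by its symbol, which stood beside 1 identifier (ENSMUSG00000020826) of 4943 genes, and 10 of the 7069 distinct peaks were annotated to it. MeRIP-seq measures N6-methyladenosine (m6A) by sequencing RNA fragments of about 100 nt before (input) and after (IP) enrichment with an m6A antibody. PMs came from sex-matched littermates on the C57BL/6 background, which were either WT or Adap-/-, a whole-body deletion of the adaptor protein ADAP. The mice were 6–8 weeks old, and all cells had been drawn to the peritoneal cavity by thioglycolate. PMs of each genotype were left untreated (mock) or received LPS at 1 μg/ml for 6 h, which gave 4 groups of 2 replicates and 16 libraries. Nothing in the labels says whether replicates came from separate mice, so that p-values measure only the spread between these samples.

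NOS2 makes nitric oxide and citrulline from arginine, with NADPH, oxygen and the cofactor tetrahydrobiopterin. In macrophages the gene is nearly silent at rest and is switched on by LPS through TLR4 and NF-κB, reinforced by interferon signaling through STAT proteins and IRF1. Its activity is set largely by how much enzyme is made, since calmodulin stays bound to it at resting calcium levels. In m6A, the mark is written on mRNA by the METTL3-containing methyltransferase complex, often near stop codons.

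Nos2 lies on the plus strand of chromosome 11 from 78811613 to 78851080 (GRCm39, the build named in the submitters' processing notes). Its peaks, numbered 5′ to 3′, ran from 78813063 to 78850866, and none was shared with another gene. Peak 1 (78813063 to 78815600) covered the 5′ UTR, start codon and CDS, peaks 2 to 8 lay in the CDS, peak 9 (78848317 to 78850566) held the stop codon, and peak 10 (78850591 to 78850866) held the stop codon and 3′ UTR. A span in the table gives the outer limits of a peak, introns included. The spans ran from 75 bases for peak 5 to 9935 for peak 6, and peaks 2 to 10 followed each other with gaps of at most 75 bases. Nos2 was thus covered along nearly its whole length and was 1 of 11 genes with 10 or more peaks, against a median of 1 peak per gene. As the exonic length within a span is not known, levels of different peaks or genes are not compared per length.

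Reads in peaks totaled 2121313 to 4325961 per input library and 5728590 to 19030373 per IP library. Fyb1, the gene of ADAP, had 41.7 to 55.1 CPM (reads scaled to a common library size by the TMM method) in the 4 Adap-/- input libraries and 287 to 436 in the 4 WT libraries, and every Adap-/- library was lower. Macrophage markers were plentiful, with 7 of 8 having a peak and a summed 10300 to 12400 CPM in every input library. Of 8 neutrophil markers, 1 had a peak (Csf3r, 145 to 194 CPM in mock and 354 to 452 after LPS), and no marker of resident PMs, B cells, T cells, eosinophils, mast cells, dendritic cells, fibroblasts or mesothelium had one. Genes without a peak were not measured, so a missing peak does not show that a cell type was absent. The part of other cells in the levels below was not tested, and fewer cells expressing Nos2 cannot be told apart from less Nos2 RNA per cell.

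A pair of IP libraries stood apart from the others of their groups, WT mock replicate 1 and Adap-/- mock replicate 2. Beside Nos2, 62 genes with no shared peak were called in the input of both genotypes with LPS at log2 fold changes above 5. In the IP of WT mock replicate 1 these genes had a median of 17.1% of their LPS input level (quartiles 14.6% and 20.3%), and in that of Adap-/- mock replicate 2 a median of 15.7% (quartiles 14.1% and 18.2%). In the IP of WT mock replicate 2 and of Adap-/- mock replicate 1 the medians were 1.02% and 1.87%. In the mock input libraries the medians were 0.532% to 1.34%, values kept low by the choice of these genes on their input fold change. With library totals alone, the medians of these IP libraries were 35.1%, 32.1%, 2.59% and 4.60%, in the order given. What set these IP libraries apart was not tested, and results that rest on them are given with and without them.

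In input, Nos2 RNA was barely detected in mock PMs and abundant after LPS in both genotypes. Input expression was taken as the reads over all Nos2 peaks. Mock libraries held 10 and 34 Nos2 reads in WT PMs (3.01 and 10.8 CPM) and 13 and 10 reads in Adap-/- PMs (4.03 and 2.86 CPM). After LPS there were 11149 and 14006 reads in WT PMs (4010 and 5860 CPM) and 12151 and 7164 reads in Adap-/- PMs (4040 and 3040 CPM). Every LPS library was therefore far above every mock library.

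**Figure D1:**
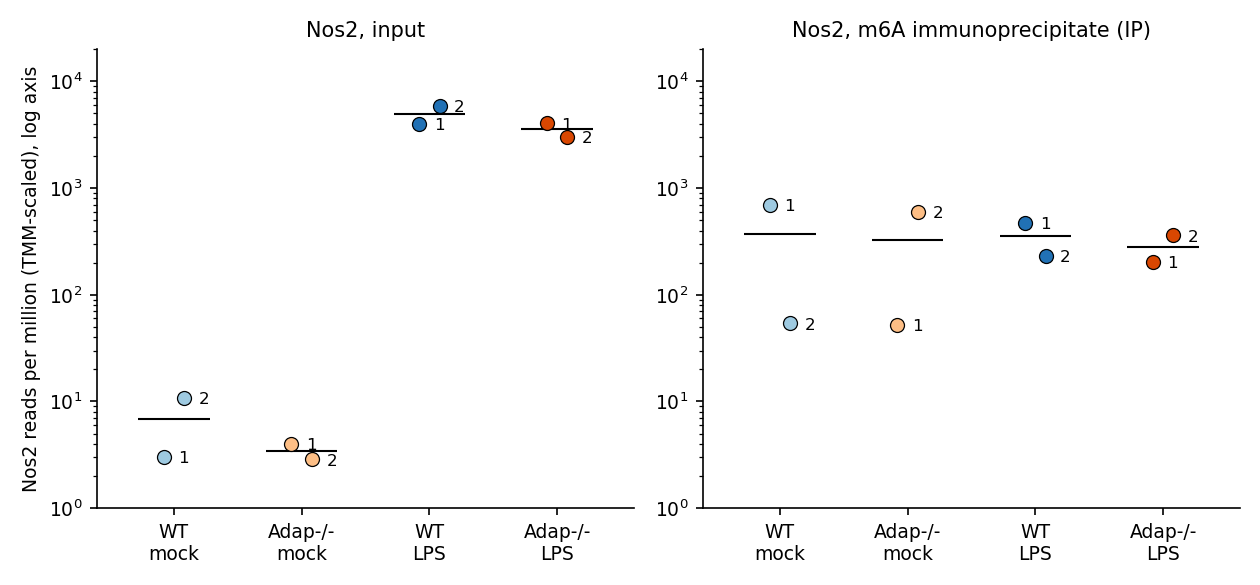
Nos2 level in TMM-scaled CPM (log axis) in the input (left) and IP (right) libraries of each group. Points are single libraries numbered by replicate and bars are means of 2. Input rose from 2.86 to 10.8 in mock to 3040 to 5860 after LPS, whereas the IP of WT mock replicate 1 and Adap-/- mock replicate 2 lay above every LPS IP.

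The group means of input were 6.9 ± 5.49 CPM (SD, n = 2) in mock and 4940 ± 1310 (SD, n = 2) after LPS in WT PMs. In Adap-/- PMs they were 3.44 ± 0.826 (SD, n = 2) and 3540 ± 701 (SD, n = 2). The fitted log2 fold change of LPS against mock was 9.49 in WT PMs (SE 0.33, adjusted p = 3.65e-13 from edgeR), or 720-fold. In Adap-/- PMs it was 10.00 (SE 0.35, adjusted p = 5.70e-13 from edgeR), or 1020-fold. By this change Nos2 had rank 4 from the top of the 4745 genes tested in each genotype. In WT PMs 29.5% of genes tested were called higher and 29.7% lower (adjusted p below 0.05), and in Adap-/- PMs 28.3% and 26.5%. Scaling by library totals alone shifted the median of all genes from −0.06 to −1.20 in WT and from −0.04 to −1.15 in Adap-/- PMs, with 12.6% and 11.3% then called higher and 75.8% and 76.7% lower. Upper-quartile scaling shifted it to −0.32 and −0.31, with 23.3% and 21.2% higher and 41.7% and 39.6% lower. Nos2 itself remained called, at 8.35 and 8.90 with library totals. Both folds rest on mock libraries of 10 to 34 reads, and without WT mock replicate 2 the fold change in WT PMs was 10.66.

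The comparison between genotypes asked whether loss of ADAP altered Nos2 expression. After LPS, Adap-/- input lay at 3040 and 4040 CPM and WT input at 4010 and 5860 CPM, so the groups overlapped by 1 library each. The log2 fold change of Adap-/- against WT was −0.48 (SE 0.20, unadjusted p = 0.0291, adjusted p = 0.123 from edgeR), and Nos2 was not called. Over all genes tested, 6.62% were called higher and 8.96% lower in Adap-/- PMs. The adjusted p passed 0.05 in some settings, at 0.0445 with only the 4 LPS input libraries in the fit, 0.0472 (−0.75) without WT LPS replicate 1, and 0.0316 and 0.0295 without WT mock replicates 1 and 2. Without WT LPS replicate 2 or Adap-/- LPS replicate 2, in contrast, the log2 fold change was −0.20 or −0.31.

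Tested peak by peak in input, all 10 Nos2 peaks had negative values after LPS (−0.69 to −0.41). Of these, 7 were called lower in Adap-/- PMs by edgeR, where 9.18% of all peaks were called lower. Peak 5 changed by −0.69 (SE 0.19, adjusted p = 0.0213 from edgeR), peak 3 by −0.61 (SE 0.16, adjusted p = 0.0132) and peak 2 by −0.60 (SE 0.18, adjusted p = 0.0284). Peaks of 1 transcript are not replicates of each other, and they share the 4 libraries. This test was added after seeing the data, and its count was 0 with library totals alone and without either WT LPS replicate 2 or Adap-/- LPS replicate 2. It was 3 with DESeq2 or without either Adap-/- mock replicate, 2 with upper-quartile scaling, and 10 without WT LPS replicate 1. Over all peaks, 5.09% were called lower with library totals alone, 6.7% with upper-quartile scaling and 5.98% with DESeq2. The values of the Nos2 peaks stayed negative in all these settings.

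In mock PMs the difference was −0.98 (SE 0.58, adjusted p = 0.268 from edgeR), where 8.81% of genes were called higher and 8.45% lower in Adap-/- PMs. This value rests on WT mock replicate 2 with its 34 reads, and became 0.18 without it and −1.65 (adjusted p = 0.0438 from edgeR) without WT mock replicate 1. The LPS responses of the genotypes differed by 0.51 (Adap-/- minus WT, SE 0.62, adjusted p = 0.795 from edgeR), and by −0.66 without WT mock replicate 2. For this difference 1.56% of all genes were called.

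Of 3474 other genes tested in input with no shared peak, the 5 most like Nos2 were Gbp4 (ENSMUSG00000028268), Gbp5, Gbp2, Ifi204 and Stat2. Likeness was the Pearson r of log2(CPM + 1) over the 8 input libraries, and it was 0.9987 for Gbp4, 0.9984 for Gbp5 and 0.9983 for the other three. The Gbp genes encode interferon-inducible GTPases that act against microbes within cells. Gbp5 had 81.1 and 215 CPM in WT mock and 75.6 and 86.9 CPM in Adap-/- mock libraries. After LPS it had 20500 and 20900 CPM in WT and 18700 and 19000 CPM in Adap-/- libraries. Because the libraries fall into a mock and an LPS cluster, high values were common, and 447 of the 3474 genes were above 0.95. The table gives the symbol Gbp4 also to ENSMUSG00000040253, and these symbols are those of the table.

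Genes that supply, control or compete with NOS2 were taken from a list of 73. Of these, 34 had no peak and could not be followed, among them Ass1 and Asl (recycling of citrulline to arginine), all calmodulin genes, the other nitric oxide synthases Nos1 and Nos3, Myd88, Rela and Ifnb1. The remaining 39 were all tested. With LPS, 25 were called higher and 8 lower in WT PMs (median log2 fold change 1.04, against −0.06 over all genes tested). In Adap-/- PMs 25 were called higher and 6 lower (median 1.18, against −0.04 over all genes tested). With library totals alone the split was 16 higher and 16 lower in WT and 14 and 15 in Adap-/- PMs, beside 12.6% higher and 75.8% lower over all genes in WT and 11.3% and 76.7% in Adap-/- PMs. In the TMM-scaled fit these shares over all genes were 29.5% and 29.7% in WT and 28.3% and 26.5% in Adap-/- PMs.

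Genes listed for arginine import and recycling rose, though not all of them are specific to arginine. All 4 with a peak were called higher in both genotypes (2 of 4 with library totals alone). Slc7a2, the cationic amino acid transporter of activated macrophages, rose most. It had 71.4 and 52.3 CPM in WT mock and 99.5 and 116 CPM in Adap-/- mock libraries. After LPS it had 2350 and 2240 CPM in WT and 2690 and 3520 CPM in Adap-/- libraries. Every LPS library lay above every mock library, with log2 fold changes of 5.21 (SE 0.17, adjusted p = 2.57e-13 from edgeR) in WT and 4.84 (SE 0.17, adjusted p = 5.03e-13) in Adap-/- PMs. The related transporter Slc7a1 rose by 2.23 and 1.93, and the neutral amino acid transporter Slc7a8 by 1.88 and 2.16. Slc7a8 was low in mock, at 2.11 and 1.27 CPM in WT and 1.24 and 2.29 CPM in Adap-/- libraries. With library totals alone its calls were lost, at 0.75 in WT and 1.06 in Adap-/- PMs. Arg1, the arginase that competes for the same substrate, fell from 116 and 269 CPM to 34.9 and 46.9 CPM in WT PMs. In Adap-/- PMs it fell from 207 and 389 CPM to 52.1 and 66.7 CPM. Its log2 fold changes were −2.24 (adjusted p = 4.87e-05 from edgeR) and −2.34 (adjusted p = 1.69e-05).

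For tetrahydrobiopterin, 2 of 6 genes had a peak and moved in opposite directions. Gch1, the rate-limiting first enzyme, rose by 2.43 (SE 0.26) in WT and 2.75 (SE 0.28) in Adap-/- PMs, whereas Spr, the last enzyme, fell by 1.29 (SE 0.14) and 1.12 (SE 0.14). Among genes for turnover and folding of the NOS2 protein, Spsb2 and Spsb4, adaptors of ubiquitin ligases that bind NOS2, were lower in both genotypes. Spsb2 changed by −1.33 in WT and −1.14 in Adap-/- PMs, and Spsb4 by −0.77 and −0.54. The call of Spsb4 in Adap-/- PMs was lost with DESeq2 (adjusted p = 0.0517), without Adap-/- LPS replicate 2 (−0.39) and without Adap-/- mock replicate 1 (−0.26). Spsb1, whose only peak is shared with another gene, was called higher in WT PMs (1.04). Scaling by library totals alone turned this value to −0.11.

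Upstream of Nos2, all 6 NF-κB and other transcription factor genes with a peak were called higher in both genotypes (5 in WT and 4 in Adap-/- PMs with library totals alone). Nfkb2 rose by 2.61 in WT and 3.32 in Adap-/- PMs, Nfkbia, the inhibitor induced by NF-κB, by 2.61 and 2.2, and Nfkb1 by 2.13 and 2.11. Of 10 interferon signaling genes, 8 were called higher and 1 lower in WT and 7 higher and 1 lower in Adap-/- PMs. With library totals alone, 6 were higher and 4 lower in WT, and 5 and 4 in Adap-/- PMs. Irf1, a transcription factor that binds the Nos2 promoter, went from 1000 and 1630 CPM to 18600 and 17200 CPM in WT PMs. In Adap-/- PMs it went from 798 and 841 CPM to 17100 and 15600 CPM. Its log2 fold changes were 3.77 (SE 0.19) and 4.32 (SE 0.20). Stat2 rose by 3.62 and 3.63, and the kinase gene Jak2 by 3.60 and 2.93. Among the LPS receptor and its adaptors, 2 of 5 genes were called higher and 1 lower in WT, and 4 higher and 0 lower in Adap-/- PMs. With library totals alone, 1 was higher and 4 lower in WT, and 1 higher and 2 lower in Adap-/- PMs. The co-receptor gene Cd14 rose by 2.06 in WT and 2.17 in Adap-/- PMs. The adaptor gene Ticam2, 1 of whose peaks is shared, rose by 0.70 and 1.11, values that became −0.45 and 0.00 with library totals alone. Tirap was called in Adap-/- PMs (1.22) but not with library totals alone (0.12), and was at 0.07 in WT PMs. The difference of its responses was 1.15 (adjusted p = 0.241 from edgeR) and not called. Tlr4, the receptor gene, named after its values were seen, was called lower in WT PMs (−0.38, adjusted p = 0.0191 from edgeR) and was at 0.14 in Adap-/- PMs.

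**Figure D2:**
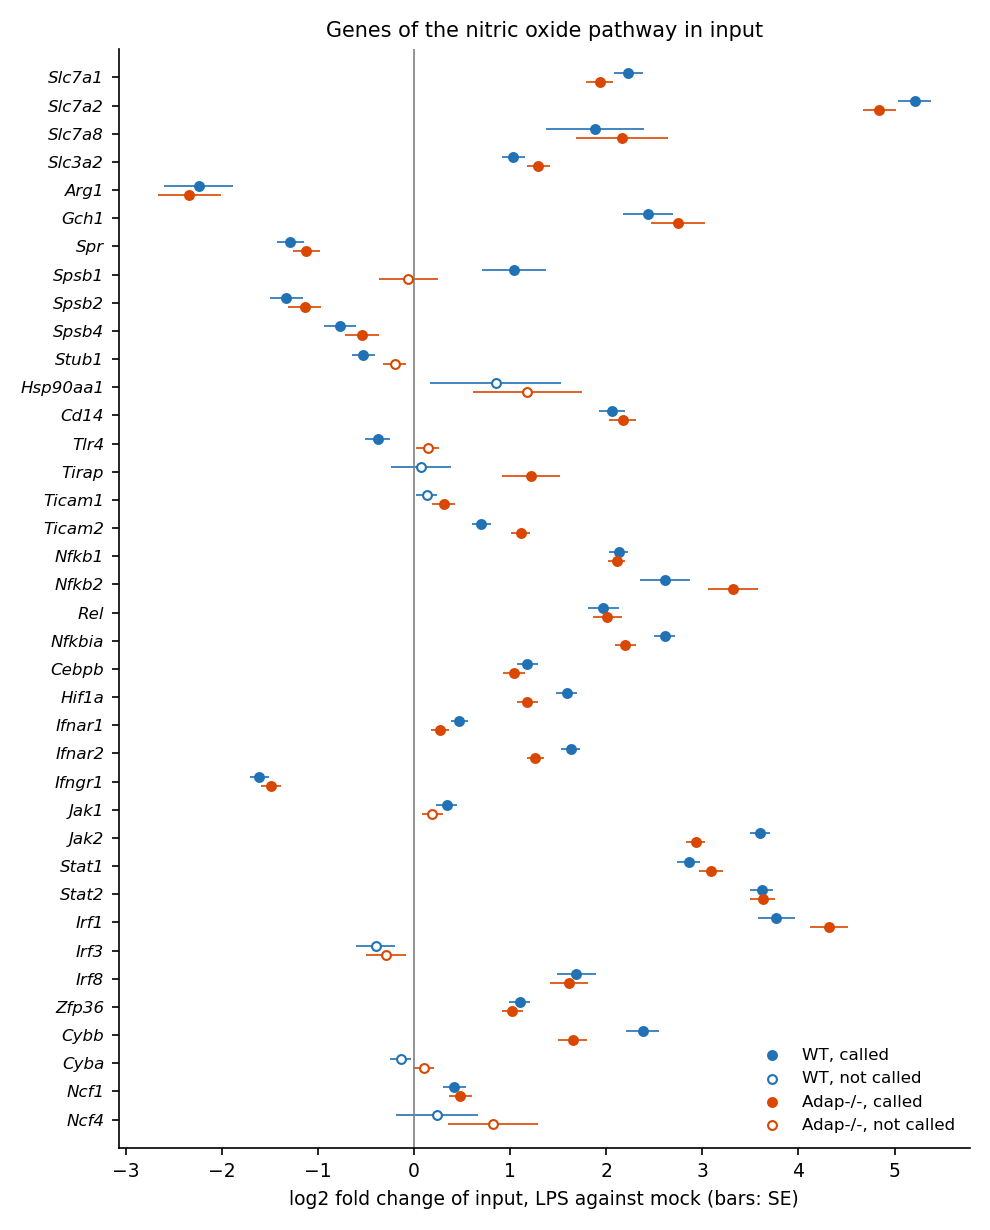
Log2 fold change of input (LPS against mock, bars are SE) for 38 of the 39 tested genes of the nitric oxide list in WT (blue) and Adap-/- (orange) PMs. Filled points were called at adjusted p below 0.05. Slc7a2 lies furthest to the right at 5.21 and 4.84 and Arg1 furthest to the left at −2.24 and −2.34.

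Zfp36, whose protein tristetraprolin binds AU-rich elements and destabilizes inflammatory mRNAs, rose by 1.10 in WT and 1.02 in Adap-/- PMs, but was −0.05 and −0.09 with library totals alone. Cybb, the catalytic subunit gene of the phagocyte oxidase, which makes superoxide that reacts with nitric oxide, rose by 2.38 in WT and 1.65 in Adap-/- PMs. Ncf1, the gene of a cytosolic subunit of this oxidase, 1 of whose 2 peaks is shared, was called higher at 0.42 and 0.48. Both calls were lost with upper-quartile scaling (0.16 and 0.22), and the signs turned to −0.73 and −0.63 under library totals.

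Between genotypes after LPS, 4 of 39 (10.3%) were higher in Adap-/- PMs and 0 lower, against 6.62% and 8.96% of all genes tested. They were Slc7a2 (0.44, adjusted p = 0.0427 from edgeR), Cd14 (0.51, adjusted p = 0.0151), Ticam2 (0.38, adjusted p = 0.0134) and Tlr4 (0.60, adjusted p = 0.00528). The count varied from 1, without WT LPS replicate 2, to 7, without either WT mock replicate. Without Adap-/- LPS replicate 2 or WT LPS replicate 1 it was 2. Slc7a2 lost its call also with RLE scaling (adjusted p = 0.0563 from edgeR) and with the replicate number as a block (adjusted p = 0.0544). In mock PMs 11 of 39 (28.2%) were called, against 8.81% higher and 8.45% lower over all genes tested. Of these, 6 were higher in Adap-/- PMs, with Cybb (0.99), Slc7a2 (0.80), Jak2 (0.71) and Nfkbia (0.41) among them, and 5 were lower, with Irf1 (−0.68, and −0.29 without WT mock replicate 2) among them. The count of 11 was 2 without Adap-/- mock replicate 2 and 5 without WT mock replicate 2.

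The IP libraries held 473 and 233 CPM in WT LPS and 205 and 360 CPM in Adap-/- LPS PMs (3137, 3358, 4056 and 4076 reads). In mock PMs IP libraries held 694 CPM in WT replicate 1 and 53.8 CPM in WT replicate 2. They held 52.6 CPM in Adap-/- replicate 1 and 598 CPM in Adap-/- replicate 2. The highest of all 8 were thus both mock IP libraries that stood apart, with 5395 and 4453 Nos2 reads beside mock inputs of 10 reads each. Without them every LPS IP library lay above both remaining mock IP libraries. These CPM values, and the ratios that follow, are scaled over all 16 libraries.

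As a share of the mean LPS input of the same genotype, Nos2 was at 12.5% in the IP of WT mock replicate 1 and 15.3% in that of Adap-/- mock replicate 2. In the IP of WT mock replicate 2 and Adap-/- mock replicate 1 it was at 0.97% and 1.35%. In these 4 libraries 7, 28, 29 and 20 of the 62 other LPS-raised genes were below Nos2, in the order just given. In WT mock replicate 1 Nos2 lay under the lower quartile of these genes (14.6%), and in the other mock IP libraries it lay between their quartiles. With library totals alone the first pair of shares was 25.6% and 31.3%, and the second 2.46% and 3.31%.

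**Figure D3:**
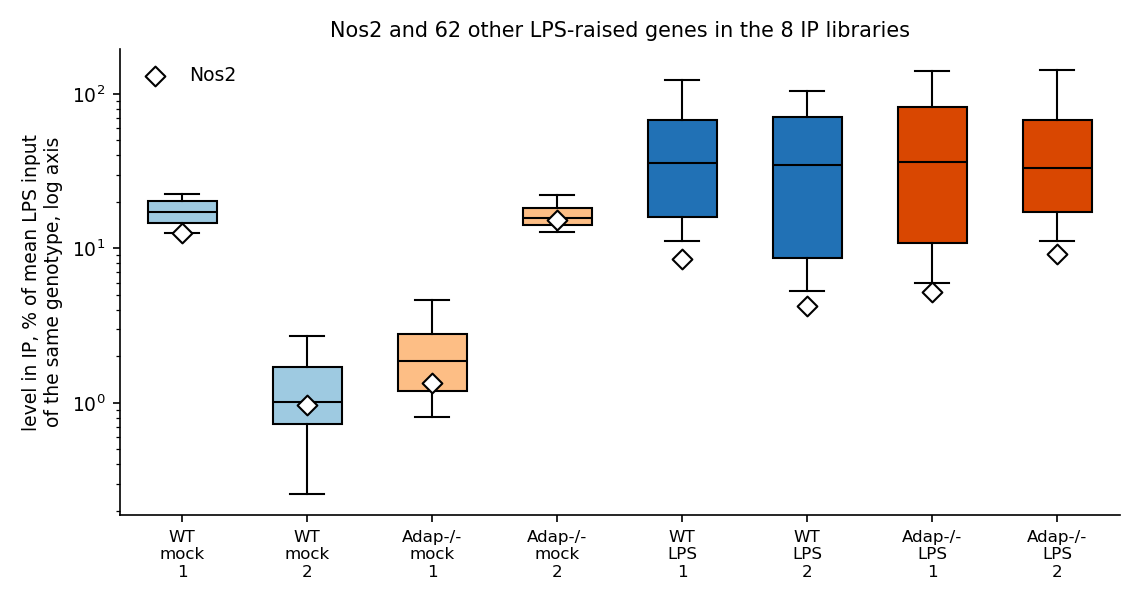
Level in each of the 8 IP libraries as a percentage of the mean LPS input of the same genotype (log axis), for Nos2 (diamonds) and 62 other LPS-raised genes (boxes with median and quartiles, whiskers at the 10th and 90th percentiles). Nos2 lies at 12.5% in WT mock replicate 1, below the box, and at 15.3% in Adap-/- mock replicate 2, within the box. In the LPS libraries it lies at 4.21% to 9.22%, below the boxes.

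After LPS Nos2 lay further below the other LPS-raised genes. Nos2 was at 8.53% and 4.21% of its input level in the WT and at 5.25% and 9.22% in the Adap-/- IP libraries, where the medians of the 62 genes were 33.3% to 36.4%. Between 2 and 5 of the 62 were lower than Nos2 in each of these 4 libraries. The low level was not particular to Nos2. Gbp4 (ENSMUSG00000028268), the gene most like it in input, was at 10.6% and 4.6% in the WT and 5.71% and 9.86% in the Adap-/- IP libraries. Gbp5, the next in likeness, was instead at 33.1% and 32.5% in the WT and 33.9% and 33.3% in the Adap-/- IP libraries. The IP-to-input ratio of summed Nos2 reads was 0.104 and 0.0356 in WT and 0.0457 and 0.108 in Adap-/- PMs. Among 3032 genes with at least 50 reads in each LPS input, the median ratio lay between 0.857 and 0.902. Between 8 and 22 of these genes had a lower ratio than Nos2, at most 0.726% of them.

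After LPS, Nos2 fragments were thus far less abundant in IP than in input. All 10 peaks were below the median peak ratio in each of the 4 LPS libraries. The best Nos2 peak of a library stood at the percentiles 2.46 to 5.26 of 3819 peaks. Within each group the replicates differed by more than the groups did. WT replicate 1 and Adap-/- replicate 2 had the higher ratios, and these carry the same genotype and replicate number as the mock IP libraries that stood apart. The part of any shared handling was not tested.

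The ratio was not even along the transcript. Peak 1, at the start codon, had 0.108 and 0.0606 in WT and 0.104 and 0.231 in Adap-/- PMs. Peak 10, at the stop codon and 3′ UTR, had 0.139 and 0.0678 in WT and 0.0676 and 0.116 in Adap-/- PMs. The highest of the 10 peaks was peak 10 in both WT libraries and peak 1 in both Adap-/- libraries. In WT replicate 1, however, peaks 7 (0.12) and 5 (0.115) lay above peak 1. In Adap-/- replicate 2, peaks 5 (0.189), 2 (0.136) and 3 (0.134) lay above peak 10. Peak 3, in the CDS, had 0.0794 and 0.00883 in WT and 0.0125 and 0.134 in Adap-/- PMs. It was the lowest in WT replicate 2 and Adap-/- replicate 1, while peak 8 was the lowest in the other libraries (0.0737 and 0.0547).

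The highest and lowest peak differed by 1.89 and 7.68 times in the WT libraries and by 8.32 and 4.22 times in the Adap-/- libraries. Peak 5, the shortest in span, varied most with the library, at 0.115 and 0.0104 in WT and 0.0393 and 0.189 in Adap-/- PMs. Over the 4 libraries the mean ratio was highest for peak 1 (0.126) and peak 10 (0.0976) and lowest for peak 8 (0.0558). Peak 10 took 8.79% to 9.92% of the Nos2 reads in LPS input and 10.5% to 18.4% in LPS IP. In the 4 mock IP libraries it took 8.45% to 11.1%. Peak 6, the longest in span, took 27.2% to 28.6% of LPS input, 23.0% to 27.1% of LPS IP and 26.0% to 39.1% of mock IP reads.

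**Figure D4:**
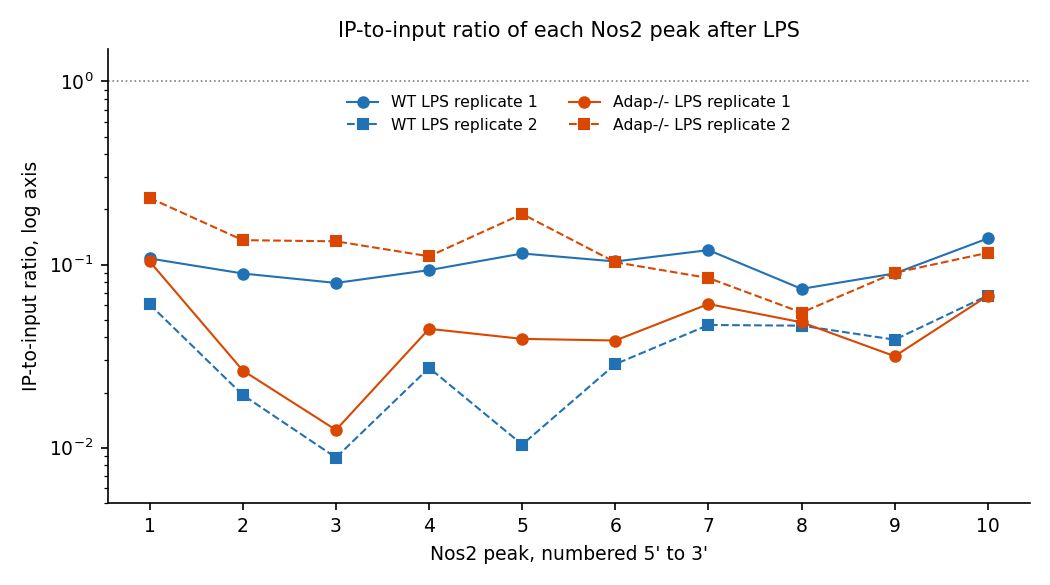
IP-to-input ratio (log axis) of the 10 Nos2 peaks, numbered 5′ to 3′, in the 4 LPS replicates. The dotted line marks a ratio of 1, and all values lie below it, from 0.00883 at peak 3 to 0.231 at peak 1.

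The ratio was compared between genotypes after LPS to ask whether loss of ADAP altered Nos2 methylation. The group ratios were 0.0698 ± 0.0484 (SD, n = 2) in WT and 0.0769 ± 0.0441 (SD, n = 2) in Adap-/- PMs. The log2 fold change of the summed ratio was 0.16 (SE 1.52, adjusted p = 1 from edgeR). The SE was 0.52 both with only the LPS libraries in the fit (0.19, adjusted p = 0.924 from edgeR) and without the mock IP libraries that stood apart (0.17, adjusted p = 0.923). Leaving out 1 LPS replicate turned it either way, to −0.55 without WT replicate 2 and −0.49 without Adap-/- replicate 2, and to 1.00 without WT replicate 1 and 0.75 without Adap-/- replicate 1. Of the 10 peaks 0 were called, 0 had an unadjusted p below 0.05 in edgeR, which called 0.0142% of all peaks. DESeq2 also called 0 of the 10, and 29 of all peaks. Peak values ran from −0.19 at peak 8 to 0.98 at peak 1 with SEs of 1.39 to 1.83, and 6 of 10 were positive. Peak 1 was at 0.99 (SE 0.42, adjusted p = 0.409 from edgeR) with only the LPS libraries and at 1.01 (SE 0.43, adjusted p = 0.325) without the mock IP libraries that stood apart.

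In mock PMs the ratio cannot be measured well, since Nos2 input was at 10 to 34 reads and single peaks held 0 to 11. The summed ratios were 179 and 3.80 in WT and 10.4 and 166 in Adap-/- PMs. The high values belong to the IP libraries that stood apart. The genotypes differed by 0.82 in mock (SE 1.74, adjusted p = 1 from edgeR), by −2.05 without Adap-/- mock replicate 2 and by −1.29 without WT mock replicate 2. Without WT mock replicate 1, in contrast, the WT ratio left was 3.80, below both Adap-/- ratios when IP and input were paired by number. The WT mock inputs held 10 and 34 reads, and replicate differences of IP and input correlated there with r = −0.141. This order therefore rests on the pairing. With both replicates that stood apart left out, 3.80 in WT and 10.4 in Adap-/- PMs remained. Again 0 of 10 peaks were called and 0 had an unadjusted p below 0.05, and edgeR called 0% of all peaks. DESeq2 called 0 of 10 too. The difference of the LPS responses was −0.66 (SE 2.31, adjusted p = 1 from edgeR), with 0 peaks called by edgeR or DESeq2 and 0 at an unadjusted p below 0.05.

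Between LPS and mock the summed ratio changed by −9.43 in WT (SE 1.81, unadjusted p = 2.56e-04, adjusted p = 0.2 from edgeR). In Adap-/- PMs it changed by −10.09 (SE 1.87, unadjusted p = 1.86e-04, adjusted p = 0.251). Neither was called, and edgeR called 0% of the 4930 genes in any comparison of summed ratios. All 10 peaks had negative values in both genotypes and an unadjusted p below 0.05, but edgeR called 0 of 10, whereas DESeq2 called 10 of 10 lower in each genotype, with 2.54% of all peaks called lower in WT and 1.57% in Adap-/- PMs. The edgeR fit with a replicate block, in which IP and input of a replicate share a term, called 2 of 10 lower in each genotype, with 0.0992% and 0.0850% of all peaks. Fold changes of single peaks are not given, because mock inputs of most peaks were at or under 3 reads. Leaving out the IP libraries that stood apart left a single mock IP library per genotype. Spread between mock IP replicates was therefore not measured in that fit. The summed ratio then changed by −6.60 in WT and −7.46 in Adap-/- PMs, and 8 and 7 of the 10 peaks were called lower, with 1.73% and 2.41% of all peaks. These peak calls rest on the single mock IP library left in each genotype.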

How the data were processed

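MeRIP-seq gave 8 input and 8 IP libraries. The authors deposited raw read counts on merged peaks with gene annotation, made on the Omicsmart platform. The submitters' processing notes name Bowtie2 2.2.8, MACS2 2.1.2, DiffBind 2.8 and GRCm39, without role or order. Whether peaks were called per library is not given in the sources used here. The 8094 lines reduce to 7069 distinct peaks, as a peak with several genes is repeated.

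Counts were analysed with edgeR 4.0.16 in R 4.3.3 by the quasi-likelihood test after TMM scaling and filterByExpr (minimum count 10, total 15), and called at a Benjamini-Hochberg adjusted p below 0.05. Gene input was the sum over a gene's peaks, so transcripts without a peak are missing. Input was fitted over 8 libraries (4745 genes, 198 left out). IP-to-input ratios were fitted over 16 libraries as contrasts of IP minus input, for summed counts (4930 genes) and peaks (7058). SEs follow from F and the log2 fold change. Library molecules carried no identifiers, so errors cover only what the counts show. The steps were tested on simulated data.

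Nos2 and the gene lists were chosen with earlier results of these data known. Named were Nos2 and its peaks, for each part of the nitric oxide list up to 3 called genes with the largest change, the 5 genes most like Nos2 over input, and Fyb1. The 62 LPS-raised genes were taken from the input fits after their values were seen. IP and input libraries share a replicate number in their labels, which name no shared RNA. They were paired by that number, since the paper's methods kept part of the fragmented RNA as input. Their replicate differences correlated across peaks with r = 0.101 (Adap-/- LPS), 0.067 (Adap-/- mock), 0.149 (WT LPS) and −0.141 (WT mock), and replicate numbers did not pair groups (r from −0.079 to 0.109 in input). Alternatives were DESeq2 1.42.0, other scalings and filters, replicate blocks, fewer libraries and leaving out each replicate. 1 gene of the list is counted but not reported here by name. No sequence of Nos2 was printed, and motifs were not searched.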

Additional observations from a re-analysis of the deposited data

Results flagged for a closer look

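The LPS response of Jak2, the interferon receptor kinase gene, differed between the genotypes by −0.66 on the log2 scale (Adap-/- minus WT, SE 0.14, adjusted p = 0.0202 from edgeR). Its input was 62.4 and 63.7 CPM in WT mock and 102 and 104 CPM in Adap-/- mock libraries, and 751 and 776 against 785 and 788 CPM after LPS. Of Nos2 and 22 genes of the nitric oxide list, Jak2 alone passed this test of the difference, beside 1.56% of all genes tested. These 22 were picked by their calls in the same data, and Tlr4 is not among them. Groups of 2 libraries are too small for a test of single outlying libraries.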

How the results depend on the processing

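The rise of Nos2 input with LPS was called in both genotypes under every alternative run, with log2 fold changes of 8.35 to 10.66 in WT and 8.90 to 10.25 in Adap-/- PMs. Leaving out each replicate, it ran from 8.83 to 10.66 and from 9.77 to 10.25. The genotype difference of input after LPS ran from −0.75 to −0.20 with a replicate left out and was called (−0.48) with only the libraries compared. Nos2 peaks called lower in input after LPS were 7 of 10, beside 9.18% of all peaks. They were 0 with library totals alone (5.09% of all peaks), 2 with upper-quartile scaling (6.7%) and 3 with DESeq2 (5.98%). The count also changed when a replicate was left out. The genotype difference of input in mock ran from −1.65 to 0.18, and the difference of responses from −0.66 to 1.17. For the summed IP-to-input ratio, leaving out a replicate gave −11.55 to −5.93 (LPS, WT), −11.24 to −7.22 (LPS, Adap-/-), −0.55 to 1.00 (genotype after LPS), −2.05 to 4.33 (genotype in mock) and −4.16 to 2.22 (difference of responses). The LPS changes of the ratio were called with library totals alone (−8.67 and −9.46 in WT and Adap-/-) and DESeq2 (−9.48 and −10.18). They were −6.60 and −7.46 without the 2 mock IP libraries that stood apart, a fit with a single mock IP library per genotype. Nos2 peaks called lower with LPS, 0 in edgeR, were 10 and 10 with DESeq2 and 8 and 7 without those libraries. With the replicate block, in which IP and input of a replicate share a term, they were 2 and 2, beside 0.0992% and 0.0850%. They were 7 and 7 with the WT mock numbers crossed (0.383% and 0.425% of all peaks), a setting chosen after seeing the data. Without a replicate they were 0 to 2 in WT. The replicate block gave summed ratio changes of −8.58 and −9.30, and the replicate number as a block over groups gave 9.49 and 10.01 for input. With this block 5 rather than 7 Nos2 peaks were called lower in input after LPS, beside 8.49% of all peaks. It changed no other call of Nos2. Single peaks between genotypes after LPS kept no stable sign: peaks 2 to 10 ran, with a replicate left out, from −0.83 to 1.88, −1.57 to 2.82, −0.37 to 1.40, −0.39 to 3.20, −0.66 to 1.20, −0.74 to 0.61, −0.53 to 0.14, −0.92 to 0.59 and −0.66 to 0.37, while peak 1 stayed positive (0.36 to 1.51). Of the list of 39 genes, 11 were called between genotypes in mock, 7 with DESeq2, and 4 after LPS, and the counts changed when a replicate was left out. Over all genes tested in mock, 8.81% were called higher and 8.45% lower, and 6.2% and 5.56% with DESeq2. After LPS these shares were 6.62% and 8.96%. Library totals alone turned the sign of Ncf1 (−0.73 in WT, −0.63 in Adap-/-), Spsb1 (−0.11 in WT), Ticam2 (−0.45 in WT) and Zfp36 (−0.05 and −0.09). The causes of these shifts were not tested. Depth limits Nos2 in mock input, where 10 to 34 reads carry every mock value.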
